A study of Mus musculus with 9 samples.

Results

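Smooth muscle contractile genes encode the actin, myosin and intermediate filament proteins, and their regulators, with which smooth muscle cells shorten. The 10 genes described here (Acta2, Actg2, Myh11, Mylk, Cnn1, Tagln, Smtn, Lmod1, Des and Synm) were taken by name from the 21498 gene symbols in the data, with no threshold on their values, though the list was drawn up with earlier results of these data known. All 10 were found and all 10 passed the filter on low values, which kept 15278 genes, those reaching 0.1 FPKM in 3 samples or more. FPKM, fragments per kilobase of transcript scaled to the mapped fragments of the sample, is a level per transcript length, so that levels of different genes can be roughly compared. The balance of long and short transcripts still differed between samples, as described below.

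In the colon wall, smooth muscle forms the outer muscle coats, the thin muscularis mucosae beneath the mucosa and the walls of blood vessels. Contraction begins when a rise in calcium activates myosin light chain kinase. The kinase phosphorylates the regulatory light chain and lets myosin pull on actin, and myosin phosphatase reverses the step. Serum response factor (Srf) and its coactivators, above all myocardin (Myocd), are known to switch on most of these genes through a short promoter element, the CArG box.

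RNA was sequenced from the colorectum of 9 male ICR mice, an outbred strain, 5 weeks old at the start and killed at the end of week 18. The 3 Control mice received neither agent. The 3 AOM/DSS + IgG Ab mice received 1 injection of the carcinogen azoxymethane (AOM, 10 mg/kg) and 3 cycles of dextran sulfate sodium (DSS), which injures the epithelium, taken by drinking (7 days at 2%, followed by 5 days at 1.5% in each later cycle), with a nonspecific IgG antibody at 1.5 mg/kg given during the DSS cycles. The 3 AOM/DSS + anti-S100a9 Ab mice received the same AOM and DSS with an antibody to S100a9, a neutrophil protein, at 1.5 mg/kg. The treated groups are called the IgG group and the anti-S100a9 group below. The labels call the Control tissue normal mucosa and the tissue of both other groups adenocarcinoma, whereas the text of the study speaks of mucosa for the anti-S100a9 samples, so that tumour against mucosa may be mixed into the comparison of the antibodies and cannot be told apart from it. How much of the underlying muscle was taken with either is not given in the sources used here, and the groups differed by AOM, DSS, IgG and tissue label at once in the comparison with Control, so that these cannot be told apart.

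The replicates were labelled as biological, and no files held identical values. One library stood apart. The summed level of the 10 genes was 1918, 3031 and 2998 FPKM in Control replicates 1, 2 and 3. It was 553, 1144 and 3373 FPKM in the IgG group, and 4319, 3754 and 2397 FPKM in the anti-S100a9 group. IgG replicate 3 therefore lay above all 3 Control samples, while replicates 1 and 2 lay below them. The same library still carried the genes that were high in the group: S100a9 was at 267 FPKM there, against 63.1 and 173 FPKM in replicates 1 and 2 and at most 0.859 FPKM in Control. Colon epithelium markers were present in every sample (Epcam between 584 and 890 FPKM). The depth of the samples is unknown, since no read counts were used here.

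Every contractile gene varied more among the IgG mice than within the other groups. The SD of log2(FPKM + 0.1) had a median over the 10 genes of 1.21 in the IgG group, where the median of all genes tested was 0.338. In Control these medians were 0.398 and 0.291, and in the anti-S100a9 group 0.429 and 0.183. All results below rest on 3 mice per group. Counts of called contractile genes, and of called genes in each partner list, are given with and without the library that stood apart where leaving it out changed them. That library was picked out by the level of the contractile genes themselves, so leaving it out lowers their IgG mean by construction. Counts without it describe the remaining samples and are no separate support. In bulk tissue, fewer smooth muscle cells and less RNA of these genes per cell cannot be told apart.

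The level of each gene by sample shows the same 3 features in most genes: a Control group of narrower spread, 2 low and 1 high IgG sample, and anti-S100a9 samples around or above Control.

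**Figure D1:**
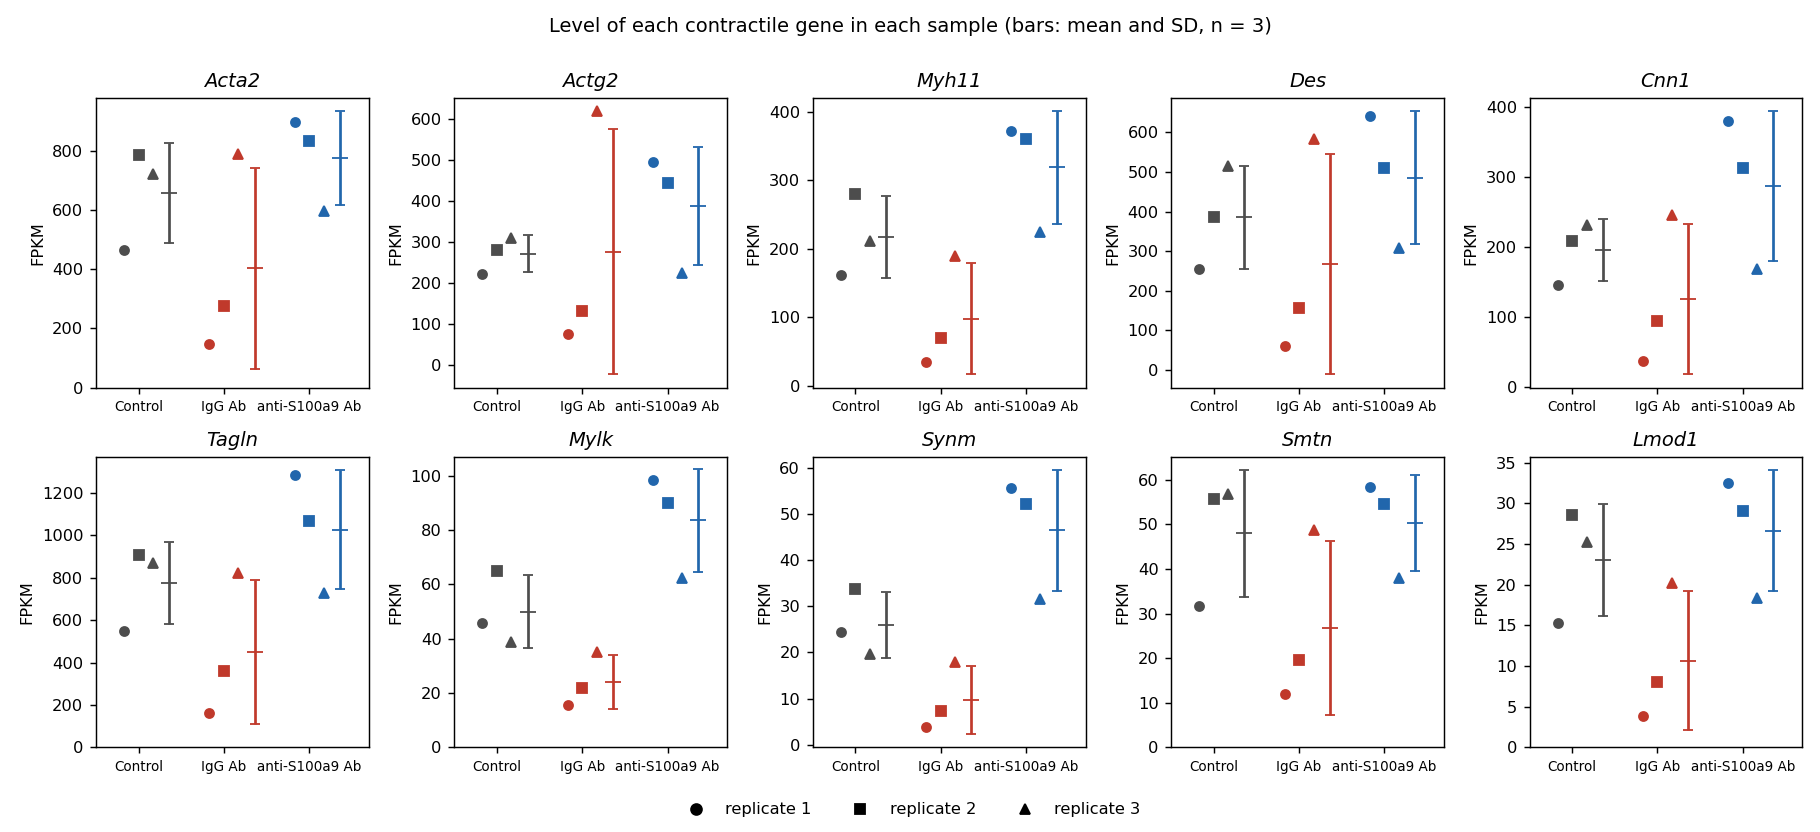
FPKM of each of the 10 contractile genes (vertical axes, linear) in each of the 9 samples; symbols mark the replicate and bars the mean and SD of 3 mice. IgG replicates 1 and 2 were the 2 lowest of the 9 samples for every gene, and replicate 3 ranked from highest of the 9 samples (Actg2) to 7th (Mylk and Synm).

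The actins form the thin filaments. Acta2 encodes alpha smooth muscle actin, which is also made by vascular muscle, pericytes and activated fibroblasts. Its level was 466, 786 and 721 FPKM in Control, 146, 275 and 788 FPKM in the IgG group, and 899, 835 and 596 FPKM in the anti-S100a9 group. IgG replicates 1 and 2 lay below every other sample, and replicate 3 lay above all 3 Control samples. On the log2(FPKM + 0.1) scale, the difference was −1.02 ± 0.54 (SE) for IgG vs Control (adjusted p = 0.243, limma) and 1.27 ± 0.54 for anti-S100a9 vs IgG (adjusted p = 0.117, limma). Neither passed the threshold of an adjusted p under 0.05. Without IgG replicate 3 both did, at −1.68 and 1.93 (adjusted p = 0.0374 and 0.0252, limma). With IgG replicate 1, the lowest sample, left out instead, the same differences were −0.46 and 0.72.

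Actg2 encodes gamma smooth muscle actin, the actin typical of visceral muscle. It measured 222, 280 and 310 FPKM in Control and 75.1, 132 and 619 FPKM in the IgG group. In the anti-S100a9 group it measured 495, 443 and 223 FPKM. The IgG samples held both the lowest and the highest of the 9 values, and replicate 3 was 5.97-fold above the mean of replicates 1 and 2, the widest such contrast of the 10 genes. Its differences, −0.55 ± 0.68 (adjusted p = 0.624, limma) and 1.00 ± 0.68 (adjusted p = 0.296, limma), were the smallest of the 10 genes in both comparisons that involve the IgG group.

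The ratio of Actg2 to Acta2 within a sample does not depend on scaling between samples. It was 0.476, 0.356 and 0.430 in Control, 0.513, 0.482 and 0.786 in the IgG group, and 0.551, 0.531 and 0.375 in the anti-S100a9 group. All 3 IgG samples lay above all 3 Control samples, with a log2 difference of 0.47 (two-sided exact permutation p = 0.1, the smallest that 3 against 3 allows, and 0.3 adjusted over the 3 comparisons). The exact permutation p was 0.6 for anti-S100a9 vs IgG and 0.4 for anti-S100a9 vs Control.

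Myh11, smooth muscle myosin heavy chain, is the motor of the thick filament and a highly specific marker of the lineage. Its level was 162, 280 and 212 FPKM in Control, 34.6, 69.8 and 190 FPKM in the IgG group, and 372, 360 and 224 FPKM in the anti-S100a9 group. Every anti-S100a9 sample lay above every IgG sample. The mean in the anti-S100a9 group was 3.25 times that in the IgG group, with a log2 difference of 2.01 ± 0.54 that passed the test (adjusted p = 0.0331, limma). Against Control, the IgG group differed by −1.46 ± 0.54 (adjusted p = 0.113, limma), which did not pass, and replicate 3 lay within the Control range.

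Mylk encodes myosin light chain kinase, the calcium-dependent switch of contraction. It measured 45.8, 64.9 and 38.9 FPKM in Control, 15.6, 21.7 and 34.9 FPKM in the IgG group, and 98.4, 90.0 and 62.3 FPKM in the anti-S100a9 group. For this gene all 3 IgG samples, replicate 3 included, lay below every sample of both other groups. Mylk had the smallest adjusted p of the 10 genes in each comparison: 0.0579 for IgG vs Control (log2 difference −1.10 ± 0.32), 0.0101 for anti-S100a9 vs IgG (1.85 ± 0.32) and 0.309 for anti-S100a9 vs Control (0.75 ± 0.32), all by limma. Only the second passed the threshold.

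Cnn1 (calponin) and Tagln (transgelin, SM22 alpha) encode actin-binding proteins of the thin filament. Cnn1 measured 146, 209 and 231 FPKM in Control, 37.8, 93.8 and 245 FPKM in the IgG group, and 379, 312 and 169 FPKM in the anti-S100a9 group. Tagln, the most abundant of the 10 genes in every one of the 9 samples, measured 551, 908 and 868 FPKM in Control, 164, 360 and 825 FPKM in the IgG group, and 1287, 1068 and 727 FPKM in the anti-S100a9 group. For both genes, IgG replicate 3 lay within or above the Control range, and the groups overlapped in every comparison. The adjusted p for anti-S100a9 vs IgG was 0.1 for Cnn1 (log2 difference 1.51 ± 0.60) and 0.0807 for Tagln (1.45 ± 0.53, limma).

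Smtn (smoothelin) binds actin in fully differentiated smooth muscle, and Lmod1 (leiomodin 1) starts the growth of new actin filaments there. Smtn measured 31.6, 55.7 and 56.9 FPKM in Control, 11.9, 19.7 and 48.8 FPKM in the IgG group, and 58.3, 54.7 and 38.0 FPKM in the anti-S100a9 group. Lmod1 measured 15.3, 28.6 and 25.2 FPKM in Control, 3.79, 7.98 and 20.2 FPKM in the IgG group, and 32.5, 29.1 and 18.3 FPKM in the anti-S100a9 group. Both genes were low in IgG replicates 1 and 2 and within the Control range in replicate 3. The difference for anti-S100a9 vs IgG was 1.13 ± 0.47 for Smtn (adjusted p = 0.110, limma) and 1.59 ± 0.54 for Lmod1 (adjusted p = 0.0635, limma), and neither passed.

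Des (desmin) and Synm (synemin) encode intermediate filament proteins, which tie the contractile apparatus to dense bodies and the cell membrane. Des measured 255, 386 and 516 FPKM in Control, 60.6, 156 and 584 FPKM in the IgG group, and 642, 509 and 307 FPKM in the anti-S100a9 group. Synm measured 24.4, 33.7 and 19.6 FPKM in Control, 3.80, 7.37 and 18.0 FPKM in the IgG group, and 55.5, 52.1 and 31.5 FPKM in the anti-S100a9 group. The partners parted in IgG replicate 3, where Des was above all 3 Control samples and Synm below all 3. Synm had the largest difference of the 10 genes in anti-S100a9 vs IgG, 2.48 ± 0.50 (adjusted p = 0.0156, limma), a 4.77-fold ratio of means. The same contrast gave 1.39 ± 0.71 for Des (adjusted p = 0.178, limma), which did not pass.

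The comparison of the IgG group with Control asked how these genes stood in treated colon. All 10 genes had negative differences, from −1.65 (Synm) to −0.55 (Actg2), with a median of −1.06 where the median of all genes tested was 0.09. None of the 10 passed an adjusted p under 0.05 (limma, Benjamini-Hochberg over all genes tested), a rule by which 3.01% of all genes tested were called lower. At an unadjusted p under 0.05, by which 10.1% of all genes were lower, Myh11, Mylk, Synm and Lmod1 passed (4 of 10), and for the same 4 genes the IgG group was also more than 2-fold lower, as for 5.19% of all genes. Mylk and Synm (2 of 10) were lower with no overlap between the groups, as were 10.2% of all genes tested. Without IgG replicate 3, 6 of 10 genes were called lower (Acta2, Myh11, Mylk, Synm, Smtn and Lmod1), where 2.08% of all genes were. With IgG replicate 1 left out instead, the differences ran from −1.125 (Synm) to 0.10 (Actg2). In replicates 1 and 2 alone, the mean level ranged from 0.215 (Synm) to 0.383 (Actg2) of the Control mean.

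The comparison of the anti-S100a9 group with the IgG group set the antibody to S100a9 against the nonspecific one, with the doubt about tissue given above. It shares its 3 IgG mice with the comparison of the IgG group with Control. Low IgG samples therefore move both in opposite directions, and the 2 comparisons are not independent. Mylk, Synm and Myh11 (3 of 10) rose, where 6.72% of all genes tested were called higher at an adjusted p under 0.05 (limma). All 10 differences were positive, from 1.00 (Actg2) to 2.48 (Synm), with a median of 1.48 where that of all genes tested was −0.06. By an unadjusted p under 0.05 with a change of more than 2-fold, 8 of 10 passed as higher, all but Actg2 and Des, against 7.64% of all genes. The 3 genes called were also the 3 whose groups did not overlap, as in 18.5% of all genes. The count rested on single libraries: it was 10 of 10 without IgG replicate 3, where 3.32% of all genes were called higher, and 1 of 10 without either anti-S100a9 replicate 1 or replicate 2. With IgG replicate 1 left out instead, the differences ran from 0.35 (Actg2) to 1.96 (Synm).

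The comparison of the anti-S100a9 group with Control shares its Control mice with the first comparison and its treated mice with the second. None of the 10 genes passed an adjusted p under 0.05 (limma), as was true of nearly all genes, since 0.0131% of those tested were called. At an unadjusted p under 0.05, 1 of 10 was higher by limma (Mylk), against 8.87% of all genes. All 10 differences were positive, from 0.09 (Smtn) to 0.83 (Synm), the groups overlapped for every gene, and the median was 0.43 where that of all genes was 0.04. The intervals were wide: the 95% interval ran from −0.97 to 1.48 for Acta2, from −0.67 to 1.77 for Myh11 and from −0.97 to 1.15 for Smtn. That of Mylk ran from 0.032 to 1.47. The plot of differences sets the 3 comparisons side by side.

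**Figure D2:**
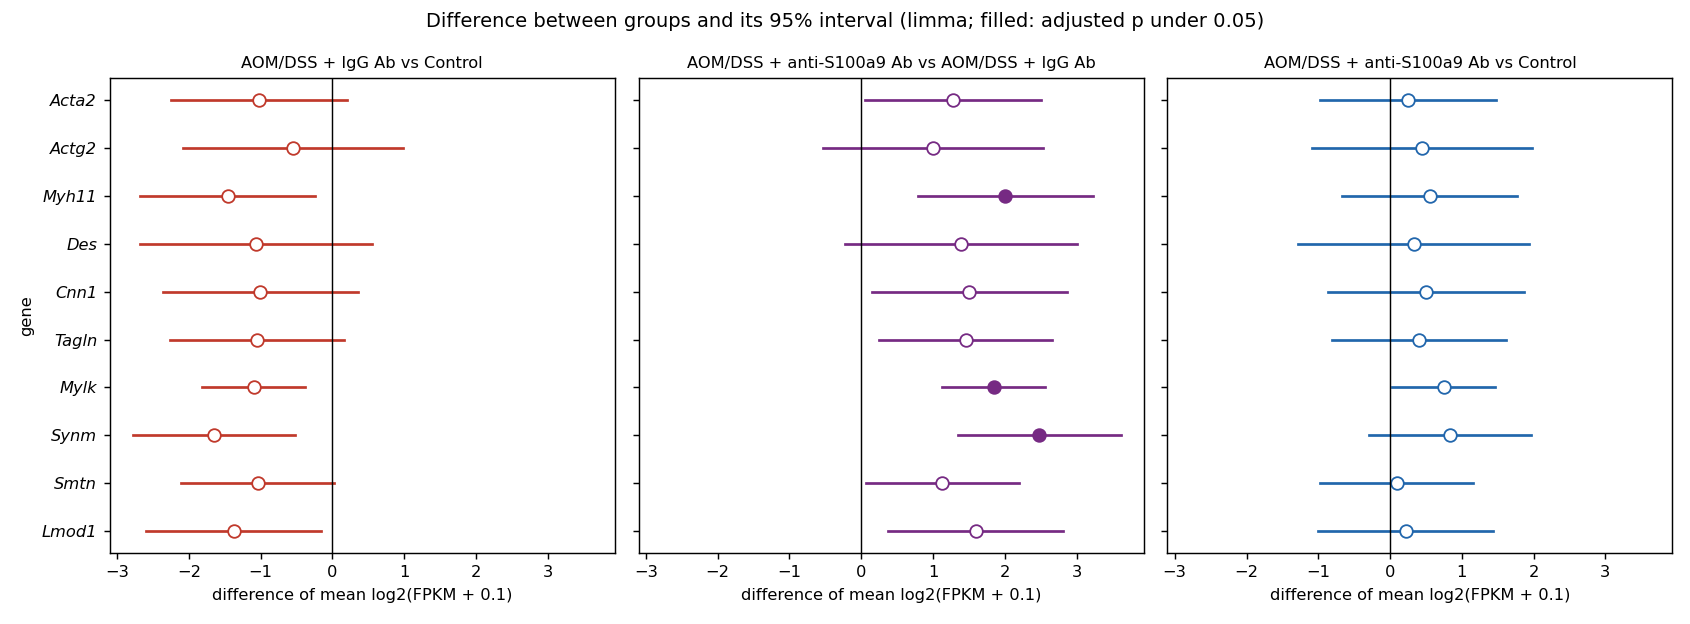
Difference of mean log2(FPKM + 0.1) between groups (horizontal axes) for the 10 contractile genes in 3 comparisons, with 95% intervals from limma; filled points have an adjusted p under 0.05. Only Myh11, Mylk and Synm in anti-S100a9 vs IgG are filled.

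The order of the 10 genes by level was nearly the same in all 9 samples. Tagln ranked first and Acta2 second in every sample, Des and Actg2 mostly followed, and Synm and Lmod1 were the lowest pair. Within that order, the share of each gene in the summed level of the 10 gives a composition that scaling cannot move. The balance of long and short transcripts, which differed between samples as described below, can still move it. The shares were not corrected for transcript length. The share of Myh11 was 8.42%, 9.25% and 7.06% in Control, 6.26%, 6.10% and 5.63% in the IgG group, and 8.62%, 9.60% and 9.36% in the anti-S100a9 group. IgG replicate 3, which stood apart in level, was with its group in this share.

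Lmod1 behaved alike, with a share of 0.685%, 0.697% and 0.6% in the IgG group and at least 0.753% in every other sample. Synm made up 0.686%, 0.645% and 0.534% in the IgG group and 1.29%, 1.39% and 1.32% in the anti-S100a9 group, and in Control 1.27%, 1.11% and 0.653%, with replicate 3 at the level of the IgG samples. Actg2 held 18.4% in IgG replicate 3, its highest share. In each of the 3 comparisons the shares of 3 of 10 genes did not overlap between the groups, and with 3 against 3 samples each such gene had a two-sided exact permutation p of 0.1, the smallest possible, which was 0.333 after adjustment over all 30 comparisons.

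**Figure D3:**
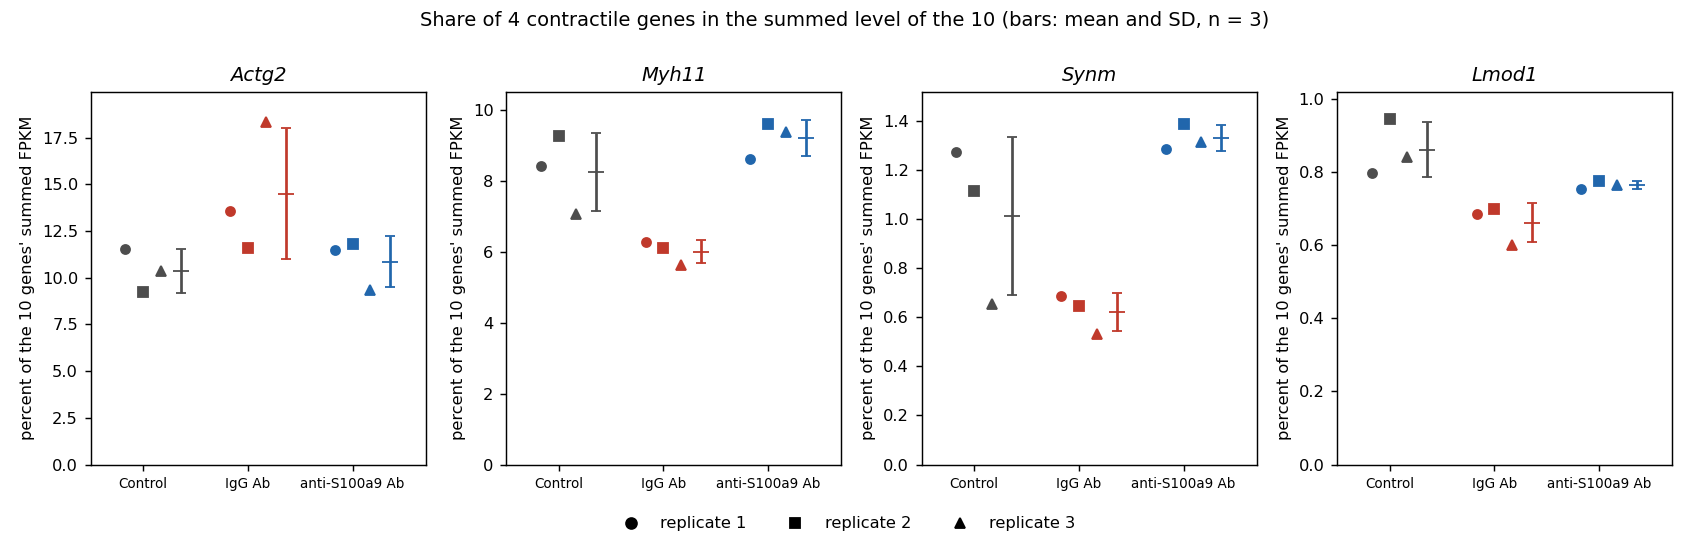
Share of Actg2, Myh11, Synm and Lmod1 in the summed FPKM of the 10 contractile genes (vertical axes, percent, from 0) in each sample, with mean and SD of 3 mice. Myh11 and Lmod1 shares in the IgG group, at most 6.26% and 0.697%, lay below those of all 6 other samples.

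Across the 9 samples the 10 genes moved closely together. The Pearson correlation of log2(FPKM + 0.1) had a median of 0.961 over the 45 pairs, from 0.732 for Actg2 with Mylk to 0.992 for Cnn1 with Tagln. After the group means were taken out, the median was 0.969, with the lowest pair Des with Mylk (0.789). These values describe 9 samples that share library and scaling, and the IgG group, with its wide spread, weighs most in the second set.

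The balance of long and short transcripts differed between samples, and Mylk, Synm and Myh11 have long ones. Their longest GENCODE transcripts have 7824, 7818 and 6549 bases, whereas Actg2 and Tagln have 1333 and 1595 bases. Among genes with a mean of at least 1 FPKM, the median log2 difference from the Control mean was higher in the longest 20% of transcripts than in the shortest 20% by 0.795, 0.681 and 0.574 in the 3 anti-S100a9 samples. The same measure was 0.229, −0.0446 and −0.325 in the IgG group, and 0.399, 0.184 and −0.603 in Control. All 3 anti-S100a9 samples were thus richer in long transcripts than the 6 others. With each sample corrected by a straight line in log2 transcript length, an alternative chosen after the data were seen, anti-S100a9 vs IgG called 2 of 10 genes (Mylk and Synm, with Myh11 at 1.88 against 2.01 without the correction, adjusted p = 0.0595 by limma), and IgG vs Control called 1 of 10 (Mylk, adjusted p = 0.0443 by limma).

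A window of the promoter, 250 bases before to 50 bases after the start site, was held for 7 of the 10 genes in RefSeq (GRCm38.p6), namely Acta2, Des, Cnn1, Mylk, Synm, Smtn and Lmod1. None of these windows held a strict CArG box (CC, then 6 bases of A or T, then GG, read alike on both strands), which 1.63% of all 32851 windows of that length held. A relaxed form with at most 1 G or C among the middle 6 bases was in 9.98% of all windows and in 2 of the 7 genes, Acta2 and Synm. These 2 windows are shown because they were the only ones of the 7 with a match to the relaxed form. Capitals mark the relaxed CArG boxes, and the sequences run 5′ to 3′ on the minus strand, at chr19:34255324-34255623 for Acta2 and chr7:67759693-67759992 for Synm.
Acta2: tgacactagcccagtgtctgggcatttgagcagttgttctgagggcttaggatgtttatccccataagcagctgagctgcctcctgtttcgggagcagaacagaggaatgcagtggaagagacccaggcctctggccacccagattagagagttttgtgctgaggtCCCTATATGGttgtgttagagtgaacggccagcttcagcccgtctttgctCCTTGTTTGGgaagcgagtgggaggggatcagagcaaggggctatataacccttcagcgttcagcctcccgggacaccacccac
Synm: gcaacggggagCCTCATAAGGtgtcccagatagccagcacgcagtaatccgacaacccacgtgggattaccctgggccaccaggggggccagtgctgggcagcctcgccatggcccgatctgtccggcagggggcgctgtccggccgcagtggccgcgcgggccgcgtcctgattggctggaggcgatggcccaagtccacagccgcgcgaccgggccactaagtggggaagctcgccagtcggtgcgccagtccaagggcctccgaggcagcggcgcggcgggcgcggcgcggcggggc
The boxes of Acta2 begin 84 and 34 bases before the start site, and that of Synm 239 bases before it. Such a match is a description of letters in this window and was not tested as a binding site.

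Of the genes that regulate this programme, Myocd was the only one called in any of the 3 comparisons. Myocd measured 0.923, 1.08 and 0.405 FPKM in Control, 0.357, 0.394 and 0.468 FPKM in the IgG group, and 2.19, 1.91 and 1.33 FPKM in the anti-S100a9 group. Every anti-S100a9 sample was above the 6 others. It rose against the IgG group by 1.89 ± 0.36 on the log2 scale (adjusted p = 0.0131, limma). Srf itself stayed between 15.5 and 23.0 FPKM in all samples. In a list of 9 regulators, 8 were tested (Foxf1 was listed at 0 in every sample), and Myocd was the 1 of 8 called higher in anti-S100a9 vs IgG (6.72% of all genes were), with none called lower. No regulator was called in either comparison with Control (limma), where 0 of 8 were under an unadjusted p of 0.05 for the IgG group and 2 of 8 for the anti-S100a9 group, both higher. Of all genes, 19.4% were higher and 10.1% lower by that rule for the IgG group, and 8.87% and 7.10% for the anti-S100a9 group. Klf4, which is known to repress these genes in smooth muscle but is abundant in colon epithelium, was at 27.4 FPKM in IgG replicate 1 and between 93.3 and 195 FPKM in the others.

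Filament and anchorage partners, 20 genes whose proteins build or tether the contractile apparatus, included many that rose in the anti-S100a9 group. Against the IgG group, 10 of 20 rose and none fell, with a median difference of 1.25, where 6.72% of all genes were called higher and 14.4% lower. Without IgG replicate 3, 14 of 20 rose, where 3.32% of all genes were called higher. Among those that rose were Dmd (dystrophin), at 0.912, 0.811 and 0.885 FPKM in the IgG group and 3.60, 3.37 and 2.51 FPKM in the anti-S100a9 group (log2 difference 1.74 ± 0.28, adjusted p = 0.0082, limma), and Pgm5 (aciculin, which binds dystrophin), with a difference of 2.60 ± 0.51 (adjusted p = 0.0146, limma). Against Control, no partner in this list was called for the IgG group (limma), with 2 higher and 3 lower at an unadjusted p under 0.05, where 19.4% of all genes were higher and 10.1% lower. Without IgG replicate 3, 2 of 20 were called lower, where 2.08% of all genes were. The 2 higher were Actn1 (alpha-actinin 1) and Pdlim7, both also expressed outside muscle, with values of 0.54 and 0.75, and the 3 lower were Dmd, Pgm5 and Sgcd.

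Genes that set the phosphorylation of myosin rose in the anti-S100a9 group relative to the IgG group in 8 of 13 cases (6.72% of all genes rose), with none lower and a median of 1.12. They included the targeting subunits of myosin phosphatase Ppp1r12a (1.82 ± 0.34, adjusted p = 0.0129, limma) and Ppp1r12b (1.89 ± 0.37, adjusted p = 0.0144, limma), and Prkg1, the cGMP-dependent kinase that relaxes smooth muscle. Prkg1 was low in the IgG group (0.190, 0.230 and 0.161 FPKM), but also in Control replicate 3 (0.133 FPKM, against 0.728 and 0.716 FPKM in replicates 1 and 2). Against Control, the 1 of 13 called lower in the IgG group was Gucy1a3, a subunit of the nitric oxide receptor guanylate cyclase, at 5.47, 6.16 and 3.65 FPKM in Control and 1.17, 2.38 and 2.73 FPKM in the IgG group (log2 difference −1.29 ± 0.32, adjusted p = 0.0365, limma). It kept this call in 12 of 21 alternatives. Without IgG replicate 3, 3 of 13 were called lower, where 2.08% of all genes were, and Gucy1a3 was at −1.51 (adjusted p = 0.0378, limma). Rhoa, a gene of this list that every cell uses, varied little (113 to 136 FPKM).

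Calcium handling genes and receptors held the partner gene with the largest differences, Pln. This gene (phospholamban, the brake on the calcium pump of the sarcoplasmic reticulum) measured 3.57, 7.21 and 3.07 FPKM in Control, 0.254, 0.837 and 0.694 FPKM in the IgG group, and 6.46, 6.39 and 3.99 FPKM in the anti-S100a9 group. Unlike the filament genes, Pln was about as low in IgG replicate 3 as in replicate 2. It fell by 2.78 ± 0.44 on the log2 scale in IgG vs Control (adjusted p = 0.00729, limma) and rose by 3.12 ± 0.44 in anti-S100a9 vs IgG (adjusted p = 0.00575, limma). Casq2 (calsequestrin 2) and Ryr2 (the calcium release channel) also fell against Control, with differences of −1.63 and −1.50 (adjusted p = 0.0482 and 0.0497, limma), making 3 of 12 where 3.01% of all genes were called lower. These calls lay at the edge of the threshold: Casq2 kept its call in 4 of 21 alternatives and Ryr2 in 5 of 20, whereas Pln kept it in 21 of 21. Without IgG replicate 3, 5 of 12 were called lower, where 2.08% of all genes were.

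Against the IgG group, 9 of the 12 calcium and receptor genes rose in the anti-S100a9 group (8 without IgG replicate 3, against 6.72% and 3.32% of all genes), none fell, and the median difference was 1.65. The muscarinic receptors of cholinergic contraction were among them: Chrm2 measured 0.593, 1.30 and 1.76 FPKM in the IgG group and 8.09, 7.00 and 6.68 FPKM in the anti-S100a9 group (2.59 ± 0.42, adjusted p = 0.00828, limma). Tacr2, the neurokinin A receptor, rose by 2.91 ± 0.61 (adjusted p = 0.0172, limma). The 3 that did not pass were Itpr1, Jph2 and Atp2a2, the last a calcium pump that many cell types make.

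Over the 4 lists together, 53 partner genes were tested. In IgG vs Control, 4 of 53 were called lower and none higher, where 3.01% of all genes were lower and 8.18% higher. In anti-S100a9 vs IgG, 28 of 53 were called higher and none lower, where 6.72% of all genes were higher and 14.4% lower (24 with the correction for transcript length), a count that dropped to 4 without anti-S100a9 replicate 2, to 7 without replicate 1 and to 18 without IgG replicate 1. The count against Control was likewise unsteady, from 1 to 10 as single libraries were left out. In anti-S100a9 vs Control, 0 of 53 were called (limma), 25 were higher at an unadjusted p under 0.05 and none lower. That rule called 8.87% of all genes higher and 7.10% lower. The map of the 10 genes and their partners shows each gene in each sample.

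**Figure D4:**
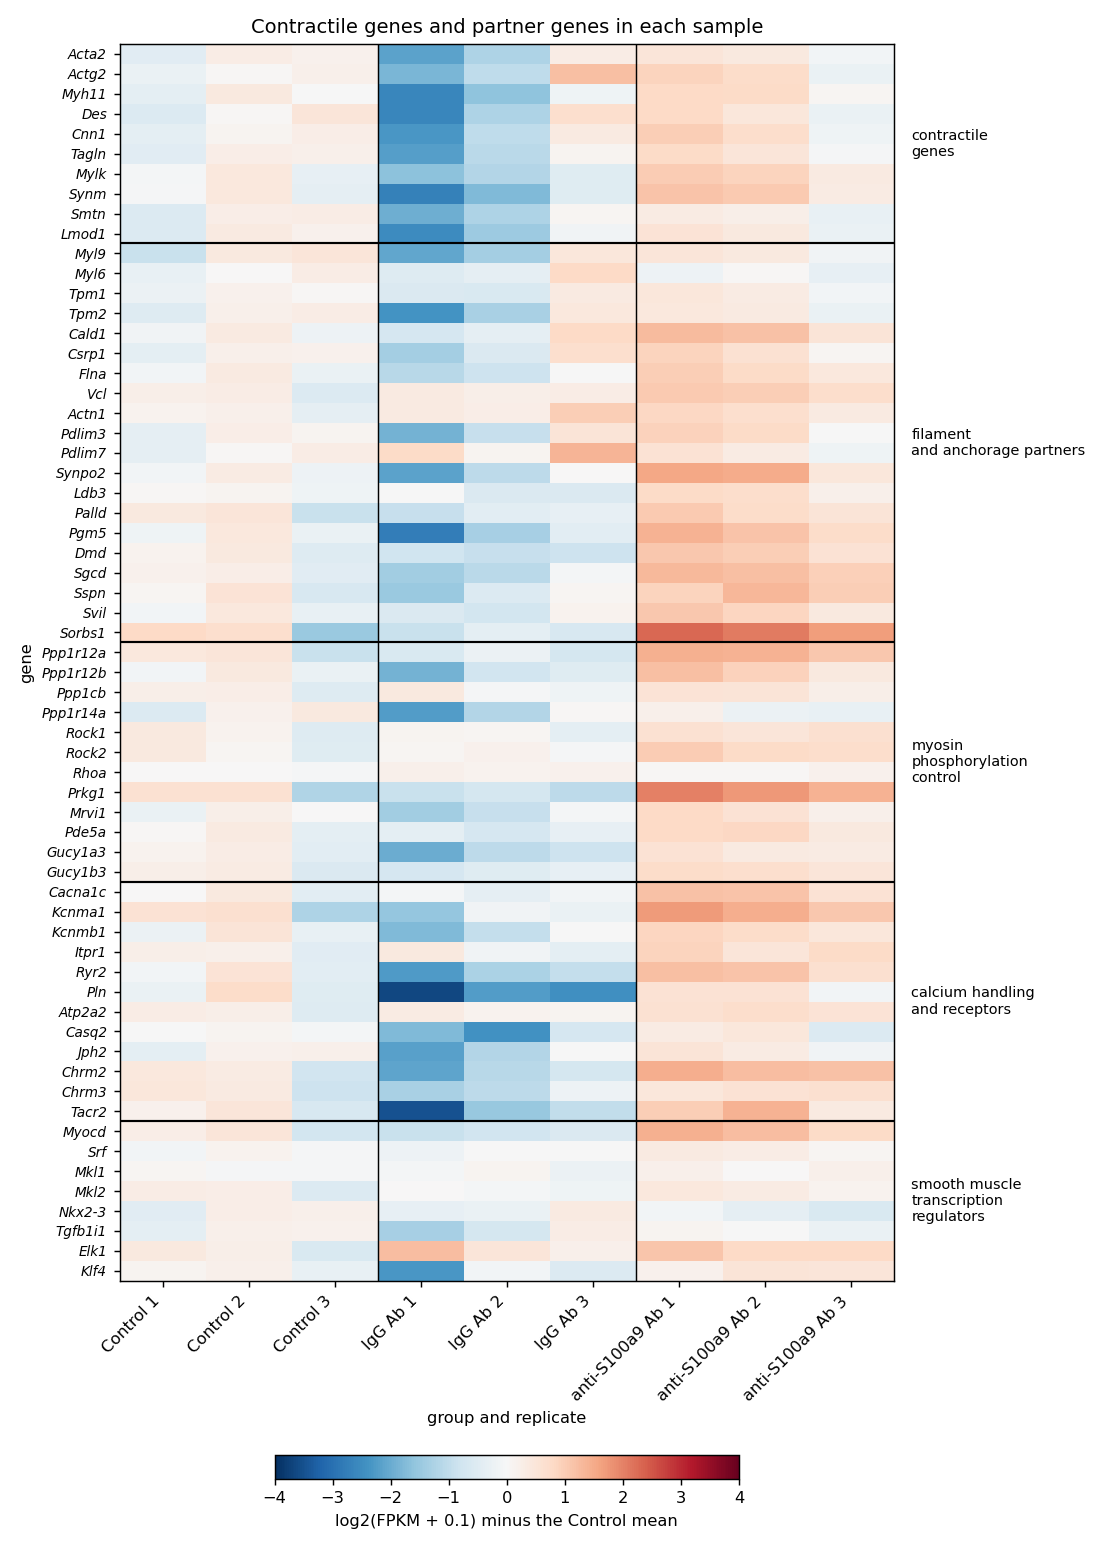
Heat map of log2(FPKM + 0.1) minus the Control mean (colour scale from −4 to 4) for the 10 contractile genes and 52 of the 53 partner genes tested (rows) in the 9 samples (columns). The contractile genes are blue in IgG replicates 1 and 2 and run from light blue (Mylk and Synm) to red (Actg2) in replicate 3, whereas Pln and Ryr2 are blue in all 3.

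Outside the 10 genes, those whose log2(FPKM + 0.1) was most like the mean of the 10 over the 9 samples were Jph2, a junction protein of calcium release sites (Pearson r = 0.994), Sntg2, Pdlim3, Rbpms2, Ckm, Popdc2, Mrgprf, Lims2, Omg and Tpm2 (r = 0.979 for the tenth). Jph2, Pdlim3 and Tpm2 were also in the partner lists. Over deviations from the group means, the 10 most alike were Pdlim3 (r = 0.999), Mrgprf, Ppic, Flii, Csrp1, Hspb2, Mrvi1, Jph2, Fstl3 and Sntg2 (r = 0.989). Pdlim3, Jph2, Mrgprf and Sntg2 stood in both lists. Ckm, the muscle creatine kinase, measured 4.53, 9.01 and 9.44 FPKM in Control, 0.760, 1.62 and 6.93 FPKM in the IgG group, and 10.6, 11.3 and 5.44 FPKM in the anti-S100a9 group. Other skeletal muscle markers did not share this level: Acta1 was listed at 0 in all samples and Myh1 and Myh4 were at or below 0.0093 FPKM. A listed 0 need not mean absent RNA. In these data 3877 symbols were at 0 in every sample, and Gapdh, the reference gene of the study's PCR, was at most 0.755 FPKM. Over all 8 skeletal markers the sum was 5.53 to 11.9 FPKM in Control, 2.10 to 9.83 FPKM in the IgG group and 6.67 to 13.3 FPKM in the anti-S100a9 group, and of the 5 tested, Myh2 was called lower in IgG vs Control. In anti-S100a9 vs IgG, Myh2 was called higher and Mylpf lower (limma).

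Markers of other cells of the muscle layer also differed between the groups. The 3 markers of interstitial cells of Cajal, the pacemaker cells of gut muscle, summed to 41.9 to 72.0 FPKM in Control, 27.7 to 39.2 FPKM in the IgG group and 50.8 to 63.4 FPKM in the anti-S100a9 group. Kit, Ano1 and Etv1 were all called higher in anti-S100a9 vs IgG (3 of 3, adjusted p = 0.0493, 0.0464 and 0.0236, limma), and Ano1 was called lower in IgG vs Control (adjusted p = 0.0487, limma). Without IgG replicate 3 none of the 3 was called in either comparison. The shares of all genes called fell too, to 2.08% lower in IgG vs Control and 3.32% higher in anti-S100a9 vs IgG. The differences themselves changed little. Ano1 was at −0.82 in IgG vs Control (−0.80 with that library). In anti-S100a9 vs IgG, Kit, Ano1 and Etv1 were at 0.99, 0.74 and 1.73 (1.05, 0.72 and 1.665 with it). In contrast to the contractile genes, these markers were no higher in IgG replicate 3 than in replicate 2. Of 10 markers of enteric neurons and glia, 4 were called higher in anti-S100a9 vs IgG, among them Elavl4, Nos1 and Sox10, where 6.72% of all genes were. None was called in IgG vs Control, where 1 was higher and 5 lower at an unadjusted p under 0.05 (limma), a rule that took 19.4% of all genes as higher and 10.1% as lower. The 1 higher was Ret, at 1.62 (adjusted p = 0.0531, limma). Ret also went against the others in anti-S100a9 vs IgG, at −1.04 (adjusted p = 0.126, limma), and Uchl1 differed by only 0.10 there. The sum of the 10 markers overlapped between groups (11.1 to 28.6 FPKM in Control, 12.2 to 30.3 FPKM in the IgG group and 19.3 to 26.0 FPKM in the anti-S100a9 group).

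Collagen genes among the fibroblast markers differed in the opposite direction. The sum of the 6 markers was 412 to 497 FPKM in Control, 616 to 2093 FPKM in the IgG group and 559 to 734 FPKM in the anti-S100a9 group. Of 6 markers, 4 (Col1a1, Col1a2, Col3a1 and Pdgfra) were called higher in IgG vs Control, and the 3 collagens were called lower in anti-S100a9 vs IgG (limma). The other two, Dcn and Lum, did not pass in any comparison: Dcn had differences of 0.31 and 0.32 in these comparisons and Lum −0.26 and 0.77. Without IgG replicate 3 none of the 6 was called in either comparison, though the differences kept their direction. In IgG vs Control, Col1a1, Col1a2, Col3a1 and Pdgfra were then at 2.12, 1.62, 2.045 and 0.89 (2.44, 1.75, 2.205 and 0.96 with that library). In anti-S100a9 vs IgG the 3 collagens were at −2.21, −1.40 and −1.70 (−2.54, −1.525 and −1.86 with it). IgG replicate 1, the lowest sample for the contractile genes, was also the lowest of its group for Col1a1 (68.6 FPKM, against 489 and 358 FPKM).

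Among other lists, pericyte markers summed to 67.6 to 108 FPKM in Control, 38.1 to 115 FPKM in the IgG group and 73.8 to 91.0 FPKM in the anti-S100a9 group, with 1 of 6 (Pdgfrb) called higher in IgG vs Control. Endothelial markers (24.2 to 28.1, 17.0 to 40.0 and 28.7 to 39.5 FPKM in the same order) and leukocyte markers (21.1 to 70.7, 14.4 to 53.6 and 38.5 to 87.9 FPKM) had none called. Colon epithelium markers summed to 3041 to 3845, 2514 to 3815 and 2648 to 3273 FPKM, with 1 of 10 called higher (Krt18) and 1 lower (Car1) in IgG vs Control. Adipocyte markers were at 38.3 to 170 FPKM in Control and at most 15.0 and 1.72 FPKM in the IgG and anti-S100a9 groups, with all 4 markers tested called lower in IgG vs Control. Mesothelial markers (1.14 to 3.18, 9.0 to 14.1 and 0.492 to 4.05 FPKM) and squamous markers (2.28 to 4.37, 8.57 to 41.5 and 2.21 to 3.42 FPKM) had every IgG sum above every sum of the other groups, with Msln, Dsg3 and Krt14 called higher in IgG vs Control and Dsg3 at 0 in all Control samples. Single genes made up most of these IgG sums: Msln (10.6, 5.49 and 13.7 FPKM) and Krt14 (37.1, 4.63 and 18.6 FPKM). The mesothelial markers Upk3b and Wt1 were not called in IgG vs Control. The squamous markers Krt1 and Krt10 had lower means in the IgG group (0.029 and 0.902 FPKM) than in Control (0.046 and 1.02 FPKM). Krt18, Msln, Dsg3, Krt14 and Lor were called lower, and Car1 higher, in anti-S100a9 vs IgG (limma). Dsg3 reached the 0.1 FPKM of the filter only in the IgG samples, the group where it was high. Its calls follow from that selection and are no separate support. The calls in the marker lists changed without IgG replicate 3. In IgG vs Control, where 5.22% of all genes were then called higher and 2.08% lower, no epithelial, adipocyte or mesothelial marker was called. There, 1 pericyte marker was called lower (Rgs5) in place of the 1 higher. Krt18, Car1 and Msln still differed by 1.047, −2.59 and 2.29 (1.185, −2.65 and 2.57 with that library). The 4 adipocyte markers tested ran from −5.15 (Cfd) to −2.53 (Plin1), against −6.43 and −2.75 with it. In anti-S100a9 vs IgG, 2 pericyte markers were called higher (Rgs5 and Cspg4) and 3 of 10 enteric markers stayed called. Krt14 was the 1 squamous marker still called, and Dsg3 no longer passed the filter and was not tested. The shares of all genes called given above (8.18% higher and 3.01% lower in IgG vs Control) are the background of the marker counts too. The part of these other cell types in the differences of the contractile genes was not tested.

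**Figure D5:**
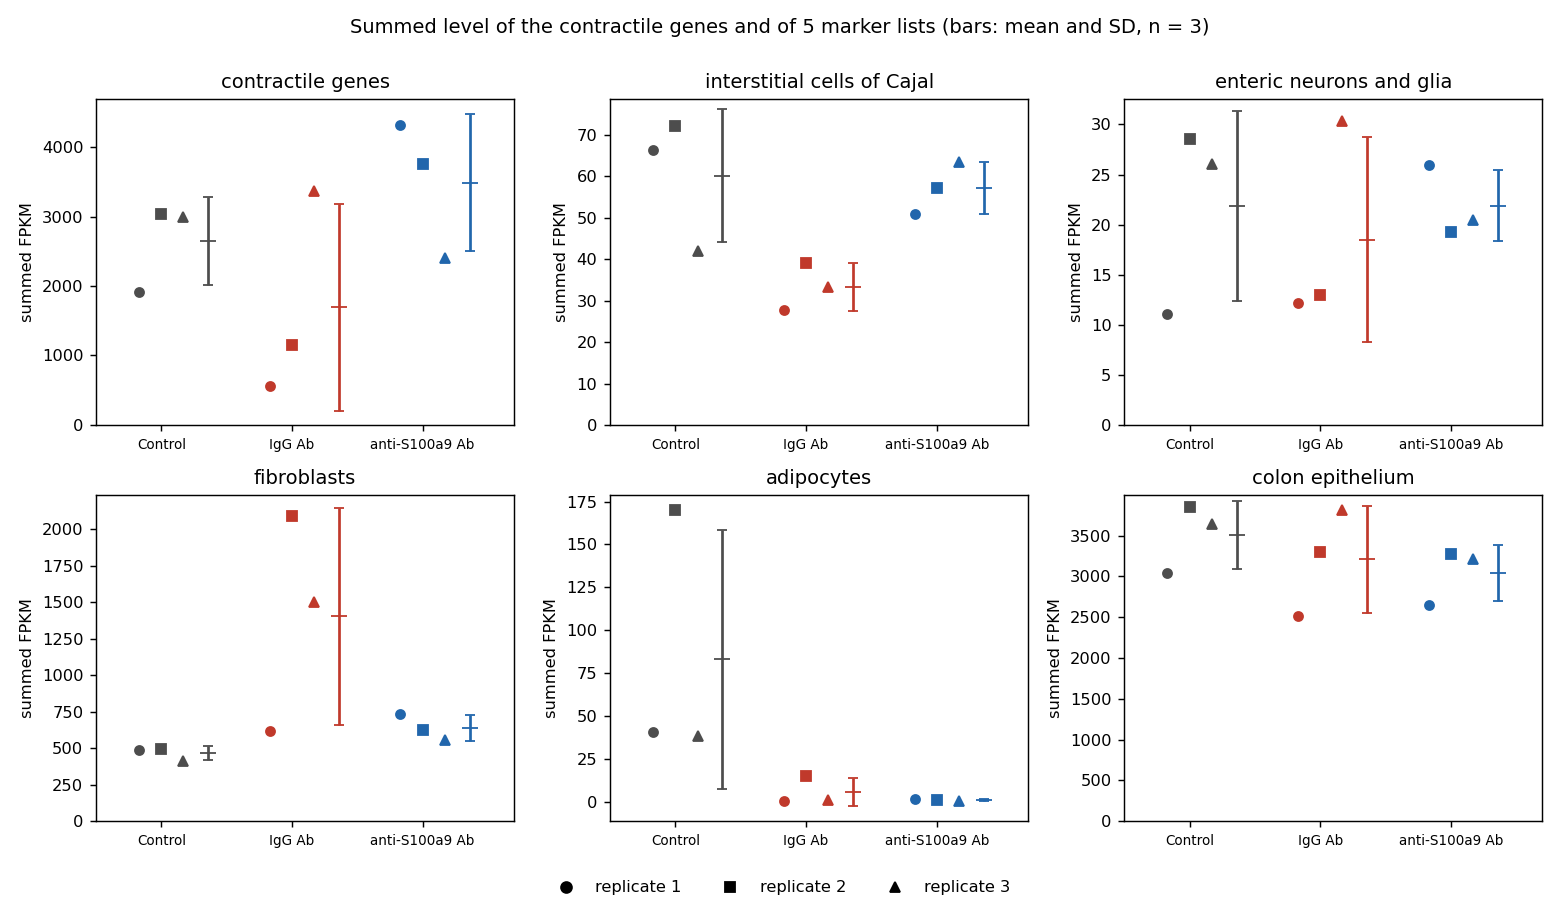
Summed FPKM of the 10 contractile genes and of 5 marker lists (vertical axes, linear) in each sample, with mean and SD of 3 mice. In IgG replicate 3 the contractile sum (3373 FPKM) was above Control, whereas that of interstitial cell of Cajal markers stayed below all 3 Control samples.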

How the data were processed

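RNA of 9 mouse colon samples, 3 per group, was analysed. The authors deposited 1 file per sample with FPKM values by gene symbol (21544 rows); the unit is not written there and was inferred from their decimals and totals and from Cufflinks among the tools. The submitters' processing notes name TopHat, Cufflinks, HTSeq and DESeq, and the build GRCm38, without versions. Totals were 308377 to 408811 FPKM per sample. Depth is not recorded in FPKM, so no counting error was computed, and precision came from the 3 mice per group.

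Rows of 1 symbol were summed. The 15278 genes reaching 0.1 FPKM in 3 samples or more were compared on log2(FPKM + 0.1) by limma 3.58.1 in R 4.3.3, with 1 model of all 9 samples, an intensity trend, 8.87 degrees of freedom and Benjamini-Hochberg adjustment, and checked on simulated data. Fold changes on this scale understate those of low genes. A second rule took the study's thresholds, an unadjusted p under 0.05 and a more than 2-fold change. Single values were compared by two-sided exact permutation tests.

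The 10 genes, the partner and marker lists and the tests were chosen with earlier results of these data known. Partner genes were named when called in a comparison or among the 4 smallest p-values against Control in their list, and like genes by rank of correlation. Rhoa, Itpr1, Atp2a2, Foxf1, Srf, S100a9 and Gapdh fall outside that rule and were named after their values were seen. Transcript lengths came from GENCODE M21 (99.7% of genes tested) and promoters from RefSeq. Alternatives covered pseudocount, filter, scaling, thresholds, groups in the fit, transcript length, the replicate block and single left-out samples.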

Additional observations from a re-analysis of the deposited data

How the results depend on the processing

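The 10 contractile genes were tested under 21 alternatives in each comparison. For anti-S100a9 vs IgG, 192 of 210 log2 differences kept their direction and their side of the threshold, 10 dropped below it and 8 rose past it, and none reversed (0.35 to 3.07). For IgG vs Control, 202 of 210 kept both and 7 rose past it. For anti-S100a9 vs Control, 207 of 210 kept both and none was called. The reversals came in values that were never called. Actg2 in IgG vs Control ranged from −1.42 to 0.10 as single samples were left out, the latter without IgG replicate 1. In anti-S100a9 vs Control, Smtn ranged from −0.19 without Control replicate 1 to 0.28, with −0.0275 without anti-S100a9 replicate 1, and Lmod1 from −0.052 without Control replicate 1 to 0.47. Their cause was not tested.

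Leaving out single samples gave 0 to 6 called contractile genes for IgG vs Control, 1 to 10 for anti-S100a9 vs IgG and 0 in each case for anti-S100a9 vs Control. For the 53 partner genes it gave 1 to 10, 4 to 32 and 0. Control replicate 3 and IgG replicate 3 each raised the partner count for IgG vs Control to 10 when left out. The study's thresholds called 4 contractile genes lower in IgG vs Control and 8 higher in anti-S100a9 vs IgG. Of the 53 partner genes they called 9 lower in IgG vs Control, 30 higher in anti-S100a9 vs IgG and 9 higher in anti-S100a9 vs Control. In the same directions, 793, 1167 and 349 of the 15278 genes tested were called. With the correction for transcript length, 1 contractile gene was called in IgG vs Control. The 4 partner genes called in IgG vs Control became 2 with a pseudocount of 0.01, with a filter of 1 FPKM or with no filter, and 1 with scaling to equal totals or with only the 2 groups in the fit. The causes of these changes were not tested.

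The replicate numbers did not pair the samples: the correlation of deviations between same-numbered samples ran from −0.187 to 0.249, and the labels give the numbers no shared origin. With the replicate number as a block, contractile genes called were 0, 3 and 0 in the 3 comparisons, and partner genes 1, 27 and 0. With the block and the correction for transcript length together, 18 partner genes were called in anti-S100a9 vs IgG. Scaling to equal totals moved the median difference of all genes from 0.09 to 0.18 in IgG vs Control, from −0.06 to 0.05 in anti-S100a9 vs IgG and from 0.04 to 0.24 in anti-S100a9 vs Control. The median of the 10 genes was then −0.97, 1.60 and 0.63. Over all genes, 1250 were called higher and 460 lower in IgG vs Control, and 947 and 631 with quantile normalization. In anti-S100a9 vs IgG, 1026 were higher and 2193 lower, 1389 and 1706 with quantile normalization, and 968 and 1114 with equal totals. FPKM without counts give no depth, so low genes such as Ryr2, Prkg1 and Myocd carry an unknown counting error.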
